A study of Mus musculus with 6 samples.

Results

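The genes described here are 34 genes of blood vessel endothelium, lymphatic endothelium and angiogenesis, out of 36144 gene symbols measured in whole inguinal white adipose tissue (iWAT). They were chosen by symbol, as genes known to mark endothelial cells or to carry the signals that build vessels. The rule uses no measured value, but the list was drawn up with earlier results of these data known. All 34 were in the gene table and all 34 passed the filter on low counts. The animals were 10-week-old female mice on a C57BL6/J background, fed freely, of which 3 were Cebpa_ASKO and 3 were Cebpa_fl/fl controls. Animals of both genotypes carried a floxed *Cebpa* gene, and the Cebpa_ASKO mice also carried Cre recombinase driven by the adiponectin promoter, AdipoQ-Cre. That promoter becomes active late in the formation of fat cells, so endothelial cells and the other vascular cells of the depot were expected to keep *Cebpa*. From every mouse the inguinal depots of the left and right side were pooled into 1 sample, without their lymph nodes, and polyadenylated RNA was sequenced, so each library is 1 mouse, and all 6 libraries carry the same batch label.

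White fat is among the most densely vascularised tissues, and each adipocyte lies against capillaries that bring it fatty acids and oxygen. Vascular endothelial growth factors act on receptor tyrosine kinases of the endothelial surface to make vessels sprout, angiopoietins and the TIE receptors steady or loosen them, and Notch and ephrin signals set which cells lead a sprout and which become arterial. Adipocytes themselves make growth factors for vessels, and endothelial nitric oxide synthase, junction proteins and fatty acid carriers are made by the capillary wall.

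The genotypes were checked with *Cebpa* (GRCm38 chromosome 7, 35119293 to 35121928). In CPM, or counts scaled to library size with TMM factors, its level was 448, 465 and 498 in the controls and 37.7, 45.8 and 37.2 in the knockouts, a log2 fold change of -3.55 with a standard error (SE) of 0.13. The libraries held between 33141769 and 49477671 estimated counts. The library Cebpa_fl/fl 1 stood apart by its lymphocyte genes, whose summed level was 476 CPM there and between 66.3 and 104 CPM in the other 5. Results that depend on this library are given with and without it, for the lymphocyte genes as levels only.

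Of the 34 genes, 5 fell in Cebpa_ASKO iWAT and none rose in edgeR's quasi-likelihood test, at a Benjamini-Hochberg adjusted p below 0.05. Of the 16069 genes tested, 5.23% were called in either direction, 3.84% lower and 1.39% higher. DESeq2 called 9 of the 34, all lower, against 10.2% of all genes in either direction and 3.79% higher. At an unadjusted p below 0.05, 14 of the 34 were lower and 0 higher, beside 19.8% of all genes in either direction. The 5 were *Nos3*, which encodes the nitric oxide synthase of endothelium, *Rgcc*, a regulator of the cell cycle and of the endothelial response to hypoxia, *Vegfb*, a ligand of the receptor FLT1, *Cldn5*, the main claudin of endothelial tight junctions, and *Emcn*, a mucin of capillary and venous endothelium. The direction was shared more widely than the calls, because 30 of the 34 fold changes lay below 0, with a median of -0.38 on the log2 scale, while the median of all tested genes was 0.025 and 53.9% of them lay above 0. The genotypes did not overlap for 15 of the 34 genes, all lower in Cebpa_ASKO, where 26.1% of all tested genes did not overlap and 13.2% did so on the lower side. On the deposited TPM scale, which carries no TMM scaling, 8 of these 15 remained apart, against 8.72% of all tested genes lower and 14.8% higher, while *Angpt1*, *Ptprb*, *Notch1*, *Pecam1*, *Cdh5*, *Esam* and *Eng* overlapped. The summed level of the 34 genes was 1398, 1531 and 1704 CPM in Cebpa_fl/fl mice and 1032, 972 and 1234 CPM in Cebpa_ASKO mice, so that the Cebpa_ASKO mean was 69.9% of the control mean. In whole tissue, fewer cells of a type and less RNA per cell cannot be told apart.

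**Figure D1:**
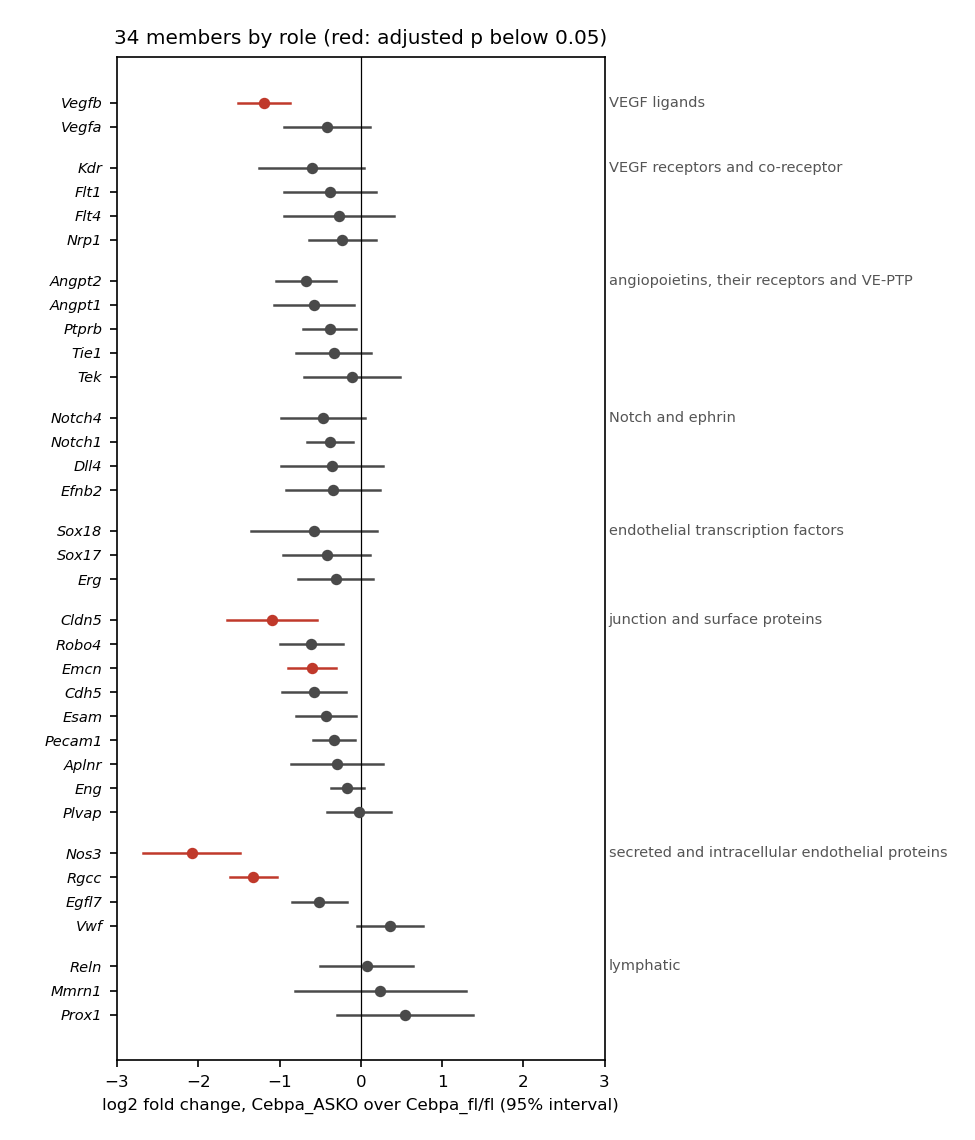
Log2 fold change of the 34 genes, Cebpa_ASKO over Cebpa_fl/fl (horizontal axis, log2 units), with points for the fitted values and lines for their 95% intervals, ordered by role. The 5 genes drawn in red passed an adjusted p of 0.05 and all lie left of 0, and *Vwf* and the 3 lymphatic genes are the only points right of it.

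On GRCm38, *Nos3* lies on chromosome 5 from 24364810 to 24384474, *Rgcc* on chromosome 14 from 79288756 to 79301645, *Vegfb* on chromosome 19 from 6982473 to 6987651, *Cldn5* on chromosome 16 from 18776847 to 18778262 and *Emcn* on chromosome 3 from 137341067 to 137432185. The promoters of the called genes are shown because these genes fell together. The 250 bases before the RefSeq start of each are given 5′ to 3′ on the gene's own strand from the GRCm38.p6 table, and *Nos3* is named only. The windows are chr19:6987652-6987901 on the minus strand for *Vegfb*, chr16:18776597-18776846 on the plus strand for *Cldn5*, chr3:137340828-137341077 on the plus strand for *Emcn* and chr14:79301636-79301885 on the minus strand for *Rgcc*. Capitals mark the core of sites for ETS factors, the family of the endothelial regulator ERG, spelled GGAAG or, on the other strand, CTTCC.
Vegfb: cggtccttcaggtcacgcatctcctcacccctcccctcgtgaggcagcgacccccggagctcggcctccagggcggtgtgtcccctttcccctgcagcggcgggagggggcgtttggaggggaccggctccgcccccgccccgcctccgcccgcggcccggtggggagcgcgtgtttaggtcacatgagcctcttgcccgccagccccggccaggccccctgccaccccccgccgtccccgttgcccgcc
Cldn5: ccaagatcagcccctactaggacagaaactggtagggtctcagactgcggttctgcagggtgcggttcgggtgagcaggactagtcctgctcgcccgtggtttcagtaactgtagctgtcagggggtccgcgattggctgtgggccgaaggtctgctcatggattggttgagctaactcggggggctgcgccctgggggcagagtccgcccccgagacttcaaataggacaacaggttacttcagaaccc
Emcn: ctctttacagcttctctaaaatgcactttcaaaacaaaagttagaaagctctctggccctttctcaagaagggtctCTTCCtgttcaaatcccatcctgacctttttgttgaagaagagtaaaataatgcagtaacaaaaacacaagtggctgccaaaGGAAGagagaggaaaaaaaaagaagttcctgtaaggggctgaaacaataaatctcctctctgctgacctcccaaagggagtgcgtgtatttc
Rgcc: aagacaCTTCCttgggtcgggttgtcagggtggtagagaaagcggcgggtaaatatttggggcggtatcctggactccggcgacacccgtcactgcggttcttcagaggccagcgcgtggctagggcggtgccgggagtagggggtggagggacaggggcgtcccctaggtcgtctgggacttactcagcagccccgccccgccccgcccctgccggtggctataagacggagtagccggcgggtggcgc
The window of *Emcn* held 2 ETS cores and that of *Rgcc* held 1, while those of *Vegfb* and *Cldn5* held 0. Of the 22 members with an entry in the table, 17 had an ETS core, or 77.3%, beside 64.1% of all 32851 windows of the same length. The C/EBP motif TTGCNNAA, searched on both strands, was in 0 of the 22 windows and in 9.56% of all windows, and the DR1 motif, to which PPAR and RXR bind as a pair, was in 0 of the 22 and in 0.0335% of all. At these rates 22 windows are too few for the absence of either motif to be a result about the members. The starts of the main GENCODE transcripts lay 65 bases from the window's end for *Emcn* and 10 bases for *Rgcc*, and 0 bases for the other genes printed.

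Levels between genes were compared per transcript length, as TPM, a share of all transcripts corrected for their length. In Cebpa_fl/fl iWAT *Rgcc* had the highest level, 204, 265 and 236 TPM, and *Vegfa* followed with 122, 133 and 188 TPM. *Vegfb* overlapped *Vegfa*, with 110, 140 and 130 TPM. The lowest were *Prox1* at 0.115 ± 0.0245 TPM (SD, n = 3), *Mmrn1* at 0.468 ± 0.185 and *Flt4* at 0.717 ± 0.176, all genes of lymphatic endothelium. In Cebpa_ASKO iWAT *Vegfa* led with 96.9, 108 and 162 TPM, *Rgcc* overlapped it with 95.6, 108 and 88.9 TPM, and *Vegfb*, with 60.0, 62.6 and 50.7 TPM, lay below all libraries of both. These levels sum all transcripts of a gene. The protein-coding Vegfa-202 and Vegfa-201 gave 32.9% and 11.0% of the TPM of *Vegfa* in Cebpa_fl/fl, and 29.6% and 11.3% in Cebpa_ASKO. Its other transcripts with at least 5% kept an intron. The rank of *Vegfa* therefore does not describe its coding transcripts alone.

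Both VEGF ligands had fold changes below 0 and only *Vegfb* was called, but the difference between them was not tested. *Vegfb* was measured at 102, 116 and 112 CPM in Cebpa_fl/fl and at 54.9, 50.2 and 39.8 CPM in Cebpa_ASKO. The genotypes were far apart, and the level in Cebpa_ASKO was 43.8% of the control level. The log2 fold change was -1.19 (SE 0.13), with an adjusted p of 0.00472 by edgeR's quasi-likelihood test. *Vegfb* is made by many cell types, fat and muscle cells among them. *Vegfa*, the main growth factor for sprouting vessels, was at 179, 184 and 262 CPM in Cebpa_fl/fl and at 139, 130 and 199 CPM in Cebpa_ASKO. Its genotypes overlapped through the highest Cebpa_ASKO library, and its log2 fold change of -0.42 did not pass the test (95% interval -0.94 to 0.11).

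Transcripts of *Vegfa* and *Flt1* were examined because they encode proteins of different kinds. The transcript Vegfa-202 gave 31.5, 33.7 and 33.5% of the gene's TPM in Cebpa_fl/fl and 29.9, 27.9 and 31.1% in Cebpa_ASKO. These shares did not overlap, and their means of 32.9 ± 1.23% and 29.6 ± 1.60% (SD, n = 3) gave p = 0.1 by an exact two-sided permutation test, the smallest p that 3 against 3 libraries allow, and 0.9 after adjustment over the 9 transcripts tested. Vegfa-201, which is also protein coding, gave 11.0 ± 1.05% and 11.3 ± 0.629% (n = 3), with p = 0.8 by the exact permutation test. The longer transcript of *Flt1*, Flt1-202, gave 69.0 ± 1.76% in Cebpa_fl/fl and 64.8 ± 9.15% in Cebpa_ASKO (n = 3, exact permutation p = 0.6). Flt1-203, the shorter transcript, gave 29.4 ± 2.31% and 30.6 ± 5.11% (n = 3, exact permutation p = 0.8), and without Cebpa_ASKO 1 the differences of the *Flt1* transcripts turned to 0.735 and -1.50 percentage points. No share passed a threshold, and the Cebpa_ASKO libraries spread more widely than the controls for *Flt1*.

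None of the 4 genes for VEGF receptors and their co-receptor was called by edgeR or by DESeq2, and 0 had an unadjusted p below 0.05, although all 4 fold changes were below 0. *Kdr*, the main signalling receptor for VEGFA, was at 60.8, 54.5 and 86.2 CPM in Cebpa_fl/fl and 36.6, 34.5 and 61.4 CPM in Cebpa_ASKO. The Cebpa_ASKO 3 library exceeded the lower control libraries, and the log2 fold change was -0.60 with a 95% interval of -1.25 to 0.039. *Flt1*, which binds VEGFA and VEGFB and can act as a decoy, was at 33.3, 29.9 and 47.2 CPM and at 25.7, 22.6 and 36.8 CPM, and its genotypes overlapped as well (log2 fold change -0.37, 95% interval -0.94 to 0.19). The values of *Flt4*, the receptor of lymphatic growth factors, and *Nrp1*, the co-receptor shared with semaphorins, were -0.27 and -0.23 on the log2 scale.

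The angiopoietin group, with the TIE receptors and the vascular phosphatase VE-PTP, had 5 of 5 fold changes below 0, of which edgeR called 0, DESeq2 called 1, and 3 had an unadjusted p below 0.05. *Angpt2*, which loosens vessels when they remodel, was at 11.3, 10.7 and 10.6 CPM in Cebpa_fl/fl and 5.83, 8.04 and 6.46 CPM in Cebpa_ASKO. The genotypes did not overlap, and the log2 fold change of -0.68 (SE 0.15) had an adjusted p of 0.06 by edgeR's quasi-likelihood test and 0.00198 by DESeq2. *Angpt1*, the steadying ligand of TEK, was at 25.6, 31.1 and 33.3 CPM and at 22.9, 14.2 and 23.2 CPM, also without overlap (log2 fold change -0.58, 95% interval -1.07 to -0.083), but with an edgeR adjusted p of 0.187. *Ptprb*, the gene of VE-PTP, was apart as well at -0.38. The receptors *Tie1* and *Tek* were at -0.33 and -0.11, and *Tek*, at 80.6 CPM in Cebpa_fl/fl 2 and 42.7 and 44.3 CPM in the other control libraries, changed sign to 0.24 when Cebpa_fl/fl 2 was left out and to 0.018 on the log2(TPM + 1) scale.

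Notch and ephrin genes, which set sprouting and arterial identity, had 4 of 4 fold changes below 0, from -0.47 for the receptor *Notch4* to -0.35 for the arterial ligand *Efnb2*, and edgeR and DESeq2 called 0 of them, with 1 at an unadjusted p below 0.05. *Notch1* was the only member of this group whose genotypes did not overlap, with 59.4, 66.2 and 73.9 CPM against 47.6, 57.6 and 47.9 CPM (log2 fold change -0.38, edgeR adjusted p = 0.141). That separation was not seen in TPM, where *Notch1* was at 9.04, 12.3 and 20.6 against 6.86, 18.1 and 15.1, and its log2 fold change was -0.15 with a length offset and -0.086 by limma on log2(TPM + 1). *Notch4* likewise moved to -0.23 and -0.13. *Dll4*, the Notch ligand of leading cells, was at -0.36. The 3 transcription factors of endothelium gave -0.31 for *Erg*, -0.42 for *Sox17*, which acts in arteries, and -0.57 for *Sox18*, which acts in blood and lymphatic vessels. None of these was called by either tool, 0 had an unadjusted p below 0.05, and the genotypes of all 3 overlapped, with *Sox18* between 5.26 and 13.4 CPM in Cebpa_ASKO.

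Among the 9 junction and surface proteins, *Cldn5* and *Emcn* fell. *Cldn5* was at 41.3, 39.4 and 45.5 CPM in Cebpa_fl/fl and 20.5, 13.0 and 25.5 CPM in Cebpa_ASKO, which was 46.8% of control (log2 fold change -1.10, SE 0.23, edgeR adjusted p = 0.0472). *Emcn* was at 19.6, 20.3 and 20.4 CPM and at 13.7, 11.2 and 14.9 CPM (log2 fold change -0.60, SE 0.12, edgeR adjusted p = 0.044). Every Cebpa_ASKO library lay below every control library for both genes, but both calls were close to the threshold. *Cldn5* was called in 7 of 16 alternatives, with adjusted p from 0.000394 to 0.166, and was lost without Cebpa_ASKO 1 (0.166), Cebpa_fl/fl 1 (0.12), Cebpa_fl/fl 2 (0.0655) or Cebpa_fl/fl 3 (0.117). *Emcn* was called in 5 of 16, with adjusted p from 0.00169 to 0.218, and was lost without Cebpa_ASKO 1 (0.148), Cebpa_ASKO 2 (0.0987), Cebpa_fl/fl 1 (0.117), Cebpa_fl/fl 2 (0.0731) or Cebpa_fl/fl 3 (0.114).

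The other 7 genes of this group were not called by edgeR, though 4 of them had an unadjusted p below 0.05. *Cdh5*, the cadherin of endothelial junctions, was at 72.2, 79.0 and 94.8 CPM in Cebpa_fl/fl and 53.0, 45.9 and 66.1 CPM in Cebpa_ASKO (log2 fold change -0.58, edgeR adjusted p = 0.11). *Robo4*, a guidance receptor that steadies vessels, was at 19.6, 20.2 and 27.0 CPM and at 13.8, 13.1 and 16.8 CPM (log2 fold change -0.61, edgeR adjusted p = 0.0967). Neither gene's genotypes overlapped, and DESeq2 gave both an adjusted p below 0.05, at 0.0281 and 0.0231. *Pecam1*, the adhesion molecule that marks nearly all endothelium, was at 91.7, 85.2 and 92.2 CPM and at 68.0, 64.3 and 81.5 CPM, without overlap (log2 fold change -0.33, 95% interval -0.59 to -0.073, edgeR adjusted p = 0.156). *Esam*, another adhesion molecule, and *Eng*, a co-receptor for TGF-beta family ligands, were apart as well, at -0.43 and -0.17. The apelin receptor *Aplnr* was at -0.29 and *Plvap*, a protein of the diaphragms of endothelial pores, at -0.019, with overlapping genotypes, and the sign of *Plvap* turned under total count scaling (0.036).

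Secreted and intracellular endothelial proteins held the largest changes. *Nos3* was at 44.0, 38.1 and 61.2 CPM in Cebpa_fl/fl and at 9.89, 9.11 and 14.8 CPM in Cebpa_ASKO. Its mean in Cebpa_ASKO was 23.6% of control, the lowest among the 34 genes (log2 fold change -2.08, SE 0.25, edgeR adjusted p = 0.0061). *Rgcc* was at 135, 157 and 146 CPM and at 63.0, 62.3 and 50.1 CPM, or 40.0% of control (log2 fold change -1.32, SE 0.12, edgeR adjusted p = 0.00225). For *Nos3*, *Rgcc* and *Vegfb* the calls held in all 16 alternatives, among them each of the 6 fits without 1 library. *Egfl7*, a secreted endothelial matrix protein, was at 47.5, 50.1 and 48.8 CPM and at 37.5, 26.9 and 38.5 CPM, apart but not called by edgeR (log2 fold change -0.51, adjusted p = 0.107). *Vwf*, the clotting factor carrier stored in endothelium, went the other way, with 24.1, 30.9 and 37.1 CPM in Cebpa_fl/fl and 35.5, 39.0 and 43.7 CPM in Cebpa_ASKO, and it did not pass the test (log2 fold change 0.36, 95% interval -0.041 to 0.76). The 3 genes listed as lymphatic were also above 0, unlike *Flt4* and *Sox18*, which act in lymphatic vessels too, and 0 of the 3 were called by edgeR or DESeq2 or had an unadjusted p below 0.05. *Prox1*, the transcription factor that defines lymphatic identity, was at 0.780, 0.869 and 0.593 CPM and at 0.824, 1.56 and 0.875 CPM, on 26 to 61 counts a library. Its log2 fold change of 0.54 had a 95% interval of -0.30 to 1.38, so a difference was not detectable at this depth. *Mmrn1* and *Reln*, secreted proteins of lymphatic vessels, were at 0.24 and 0.072, and both turned sign when single libraries were left out.

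**Figure D2:**
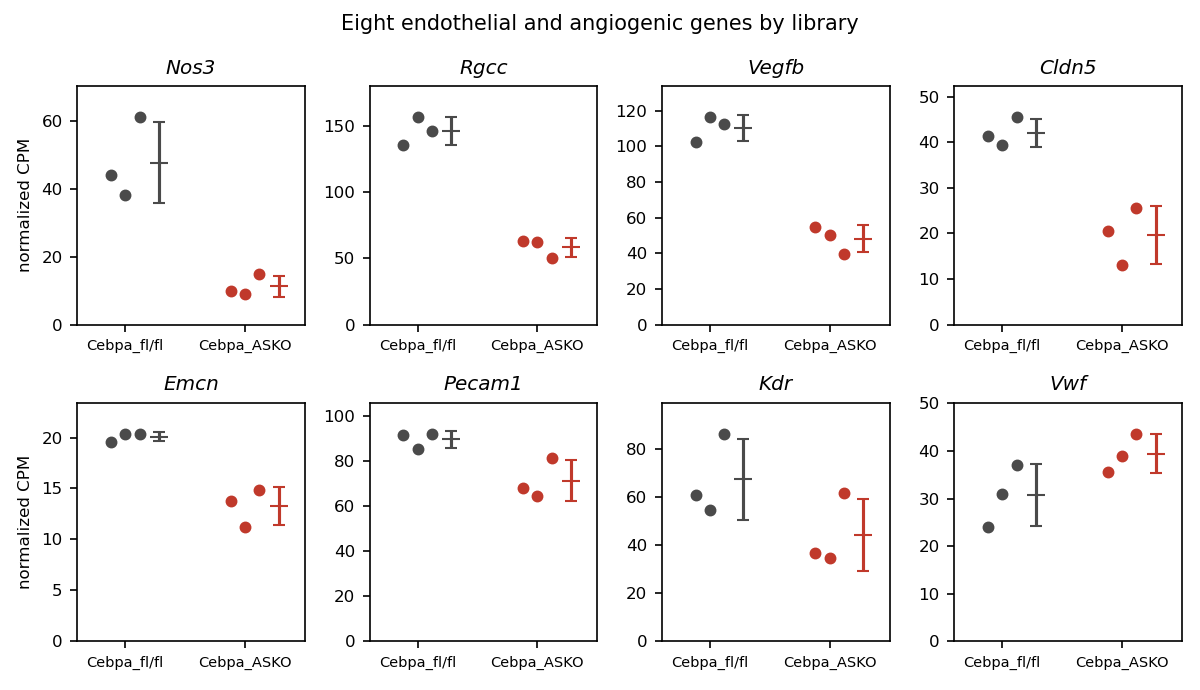
Normalized CPM of 8 genes in each of the 6 libraries (vertical axes, starting at 0), with a point for each library, a horizontal bar for the mean and whiskers for the SD (n = 3 per genotype). The points of *Nos3*, *Rgcc*, *Vegfb*, *Cldn5*, *Emcn* and *Pecam1* do not overlap between genotypes, whereas those of *Kdr* and *Vwf* do.

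Members also varied together between libraries of 1 genotype. Cebpa_fl/fl 3 was the highest control library for 22 of the 34 genes, beside 35.0% of all tested genes, and Cebpa_fl/fl 1, the library with lymphocyte genes, was the lowest for 22, beside 30.9% of all. Cebpa_ASKO 3 was the highest of its genotype for 26 genes, beside 33.2% of all, and Cebpa_ASKO 2 the lowest for 22, beside 32.3% of all. Without Cebpa_fl/fl 1 the number of called members was 3 in place of 5, and it was also 3 without Cebpa_fl/fl 2, Cebpa_fl/fl 3 or Cebpa_ASKO 1. The 3 that held were *Nos3*, *Rgcc* and *Vegfb*. Over all tested genes the calls went from 840 to 508 without Cebpa_fl/fl 1 and to 922 without Cebpa_fl/fl 2. They went to 502 without Cebpa_fl/fl 3 and to 311 without Cebpa_ASKO 1.

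To describe the members beside a fixed set of endothelial genes, each was expressed as a share of the summed CPM of 8 genes that mark most endothelial cells (*Pecam1*, *Cdh5*, *Tie1*, *Esam*, *Emcn*, *Egfl7*, *Robo4* and *Erg*), of which 6 were themselves apart between genotypes. Each of these 8, which are members too, was set against the sum of the other 7. The sum of all 8 was 315, 322 and 371 CPM in Cebpa_fl/fl and 242, 209 and 285 CPM in Cebpa_ASKO, or 72.9% of control. A list of 28 further pan-endothelial genes, described below, summed to 84.2% of control, with 21 genes lower and 7 higher. The core sum therefore does not stand for all endothelial genes. Relative to the core sum, and leaving the 8 core genes aside, 18 of 26 genes overlapped between genotypes, 4 were lower and 4 were higher in every Cebpa_ASKO library. Because the core sum itself was lower in Cebpa_ASKO, 48.7% of all tested genes were higher on this scale and 3.47% lower, so the count of 4 higher members is no result about them. The 8 core genes all overlapped. The lower genes were *Nos3*, *Rgcc*, *Vegfb* and *Cldn5*. *Nos3* stood at 14.1 ± 2.34% of the core sum in Cebpa_fl/fl and 4.55 ± 0.582% in Cebpa_ASKO (SD, n = 3), and *Rgcc* at 43.7 ± 4.59% and 24.5 ± 6.25%. The higher genes were *Vwf*, from 9.08 ± 1.27% to 16.2 ± 2.14%, *Plvap*, from 9.32 ± 1.62% to 12.4 ± 0.847%, *Eng*, from 18.6 ± 0.696% to 22.9 ± 3.02%, and *Prox1*, from 0.226 ± 0.0579% to 0.465 ± 0.244%. The shares of *Kdr*, 19.8 ± 3.21% and 17.7 ± 3.39%, and of *Vegfa*, 61.5 ± 7.93% and 63.3 ± 6.32%, overlapped.

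**Figure D3:**
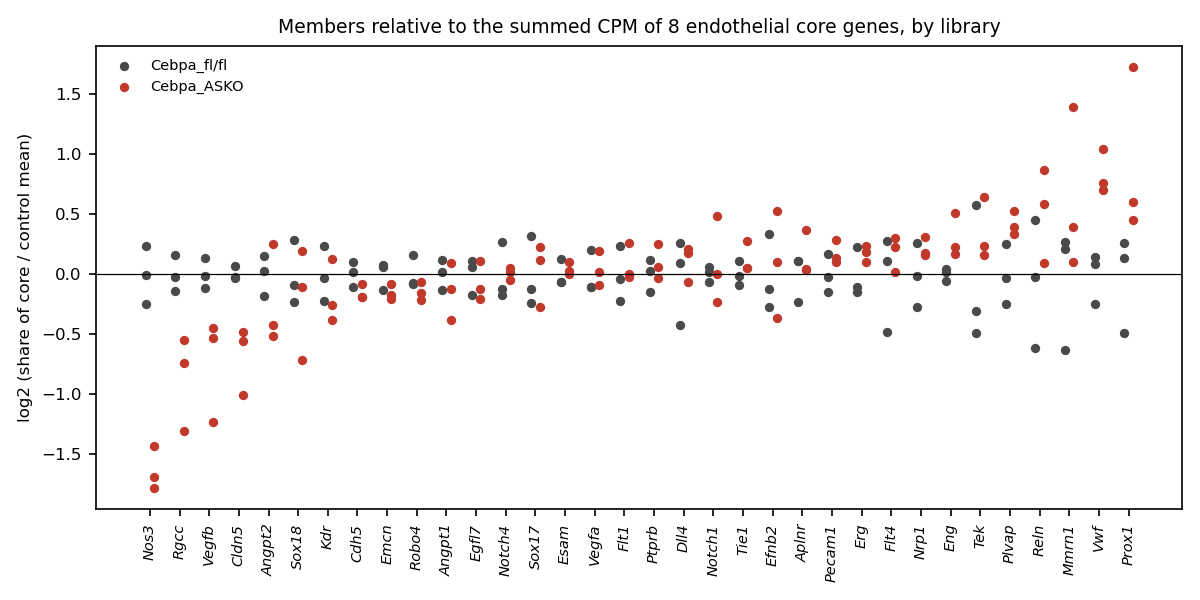
Share of each member in the summed CPM of 8 endothelial core genes, as log2 of its ratio to the mean of the Cebpa_fl/fl libraries (vertical axis), with 1 point for each of the 6 libraries, Cebpa_fl/fl in grey and Cebpa_ASKO in red. *Nos3*, *Rgcc*, *Vegfb* and *Cldn5* lie below the control points, *Eng*, *Plvap*, *Vwf* and *Prox1* above them, and the remaining 26 genes, the core genes among them, overlap. On this scale 48.7% of all tested genes lie above their control points and 3.47% below.

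Genes of other cell types moved with genotype beside these results, and their part in the results was not tested. Of 10 skeletal muscle genes, 9 rose, and the list took 0.0542 to 0.0771% of the counts in Cebpa_fl/fl libraries and 0.202 to 0.558% in Cebpa_ASKO libraries, most of all in Cebpa_ASKO 2, the library that was lowest of its genotype for 22 of the 34 genes. Of 10 adipocyte genes, 7 fell, and the summed level of the 10 was between 27406 and 33235 CPM in Cebpa_fl/fl and between 8327 and 9667 CPM in Cebpa_ASKO. *Adipoq* was at 2301, 3106 and 2399 CPM in Cebpa_fl/fl and at 384, 310 and 334 CPM in Cebpa_ASKO (log2 fold change -2.93). Only *Gpd1* lay above 0 in this list, at 0.82, and it was not called. Of 5 erythroid genes edgeR called 0 and DESeq2 4, but all 5 were lower without overlap and had an unadjusted p below 0.05, with a summed level of 54.3% of control. The 8 mammary epithelial genes, of which 5 were apart, edgeR called 0, DESeq2 called 4 and 7 had an unadjusted p below 0.05, summed to between 641 and 1339 CPM in Cebpa_fl/fl and between 1811 and 1873 CPM in Cebpa_ASKO. In the pericyte and smooth muscle list of 10 genes, cells that wrap the vessels, *Abcc9* rose (log2 fold change 0.84, edgeR adjusted p = 0.014) and the median was 0.25, while *Higd1b* was lower without overlap and not called by edgeR (-0.92, adjusted p = 0.0508). DESeq2 called 3 genes of this list higher and 1 lower, and 4 were higher and 1 lower at an unadjusted p below 0.05. In the lists for fibroblasts (10 genes) and macrophages (8), edgeR and DESeq2 called 0 genes and 0 had an unadjusted p below 0.05. In the Schwann cell list (6), edgeR called 0, DESeq2 called 2 higher, and 2 were higher at an unadjusted p below 0.05. In the lymphocyte list (7 tested of 8), edgeR called 0, DESeq2 called 1 lower, and 5 were lower at an unadjusted p below 0.05. The lymphocyte falls rested largely on Cebpa_fl/fl 1, at 476 CPM for the whole list. The other controls, at 104 and 67.9 CPM, overlapped the Cebpa_ASKO libraries, at 75.3, 66.3 and 87.9 CPM. *Cd3e*, the gene DESeq2 called, stayed apart without Cebpa_fl/fl 1, at 1.34 and 0.996 CPM against 0.571, 0.638 and 0.606 CPM.

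Further vascular genes, in 7 lists, put the 34 in context: of 121 genes tested, 13 fell and 2 rose. At the same edgeR threshold, the background over 16069 genes was 3.84% for falls and 1.39% for rises. The 2 rises lay near that background, so they do not set these lists apart. The number called dropped from 15 to 4 without Cebpa_ASKO 1, to 7 without Cebpa_ASKO 2 and to 6 without Cebpa_fl/fl 3. In the same fits the calls over all tested genes dropped as well, from 840 to 311, 363 and 502. The list of capillary genes that handle lipids had the lowest median, -1.13, with 6 of 14 genes lower. They were the fatty acid carrier *Fabp5* (-2.36), the retinol carrier *Rbp7* (-2.25), the carbonic anhydrase *Car4* (-1.63) and the butyrophilin *Btnl9* (-1.44), and also *Cd300lg* (-1.13) and *Gpihbp1* (-1.13), the anchor of lipoprotein lipase, both named after their values were seen. *Gpihbp1* was at 53.3, 60.6 and 67.4 CPM in Cebpa_fl/fl and 31.6, 23.6 and 27.8 CPM in Cebpa_ASKO. The most abundant genes of the list that were not called, *Fabp4* (-0.86, edgeR adjusted p = 0.107) and *Cd36* (-0.81, 0.0577), are also expressed by adipocytes. For the called genes too, which cells of the tissue the changes in this list came from was not tested.

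Of 28 further pan-endothelial genes, *Mcam*, an adhesion molecule of endothelium and pericytes (-1.96), *Cyyr1* (-0.97) and the adhesion receptor *Adgrl4* (-0.80) fell, and the median was -0.26. *Cd34*, which progenitor cells also carry, and *Tm4sf1* were not called, at 0.29 and 0.30. In the list of 12 VEGF family and semaphorin partners *Nrp2*, a co-receptor for lymphatic VEGF and semaphorins, rose (0.70) and the median was -0.074, with *Sema3c* and *Plxnd1* not called at -0.053 and -0.17. In the list of Notch, ephrin and TIE partners *Angptl1*, a secreted angiopoietin-like protein, rose (1.56) among 18 tested, with *Rbpj* and *Notch2* not called at 0.063 and 0.073. DESeq2 called 1 gene of that list higher and 2 lower, and 2 were higher and 2 lower at an unadjusted p below 0.05. Of 13 arterial and venous genes 0 were called by edgeR or by DESeq2, 1 had an unadjusted p below 0.05, and *Fbln5* and *Mgp* were at 0.052 and 0.21. Of 13 lymphatic genes tested 0 were called by either tool, 1 had an unadjusted p below 0.05, and the median was 0.17, with *Maf* and *Lyve1*, a receptor of lymphatic vessels that macrophages also carry, at 0.083 and 0.034. *Ccl21a*, a chemokine of lymphatic vessels and lymph nodes named after its values were seen, was at 64.6 CPM in Cebpa_fl/fl 1 and at most 6.78 CPM in the other 5 libraries, and its log2 fold change was -2.81 with that library and -0.47 without it. In the list of growth factors, inhibitors and hypoxia genes, 4 of 23 fell, the hypoxia targets *Bnip3* (-1.81) and *Egln3* (-1.26), the growth factor *Fgf2* (-0.86) and *Epas1* (-0.55), a hypoxia-inducible factor of endothelium, the median was 0.025, and *Sparc* and *Angptl4* were not called at -0.42 and -0.15. DESeq2 called 5 genes of this list lower and 4 higher, and 6 were lower and 5 higher at an unadjusted p below 0.05.

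**Figure D4:**
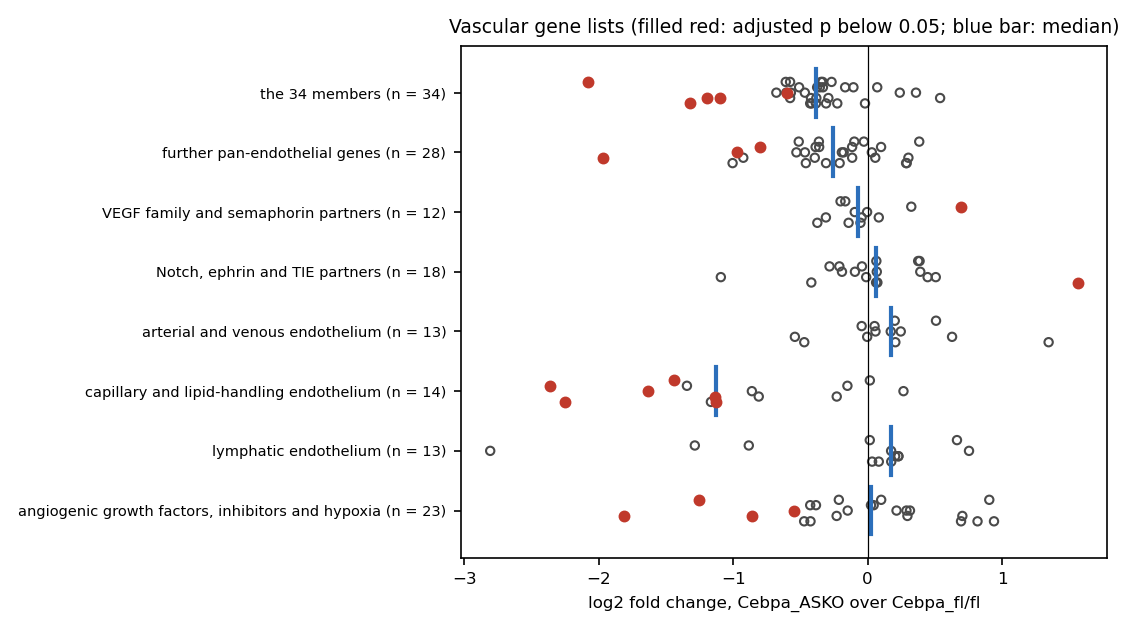
Log2 fold change, Cebpa_ASKO over Cebpa_fl/fl (horizontal axis, log2 units), of the tested genes in the 34 members and in 7 further lists, with 1 point for each gene, filled red where the adjusted p was below 0.05, and a blue bar for each median. The median of the capillary and lipid-handling list lies at -1.13, left of the members' at -0.38, while the arterial and venous list and the lymphatic list have medians of 0.17.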

How the data were processed

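The authors deposited, for each transcript and library, an estimated count and its effective length, and TPM, also summed per gene symbol, all made with kallisto 0.44.0 per the labels. GRCm38.p6 is among the builds the labels list. Here transcripts were matched to GENCODE M21 (98.6% of 118489), counts were summed per symbol and rounded, and 16069 genes passing edgeR's default filter were tested by edgeR's quasi-likelihood test (edgeR 4.0.16, R 4.3.3) with TMM scaling and Benjamini-Hochberg adjustment, calling at 0.05. The paper names DESeq2, which was run as an alternative (1.42.0), as was limma 3.58.1 on log2(TPM + 1), a scale that understates changes of low genes. kallisto divides reads among similar transcripts, so transcript shares are less certain than gene sums. The members and the other gene lists were chosen with earlier results of these data known. Members got values per library where called, where the genotypes were apart and the log2 fold change reached 0.5 in either direction, or where they define a group; of the other lists, at most 4 called genes and the 2 most abundant others were named. Replicates of a genotype differed by more than sampling noise (chi-square divided by its degrees of freedom, 27.6 to 239) and were kept as separate mice, and intervals cover only the spread between them. On simulated counts for this comparison (15869 genes) a log2 change of 1 was recovered in 70% of changed genes and a log2 change of 2 in 98%, with 2.89% of calls false. The changed genes were drawn from those with a mean log2 CPM above 1, and the simulated spread depended on expression level alone. These rates therefore do not cover lower genes such as *Prox1*, or genes with an unusual spread of their own. Of the further lists, *Ca9* matched no symbol, *Apela* and *Nts* did not pass the filter, and the counts of *Pdpn* cover 50% of its deposited TPM. The members' counts cover 100% of theirs.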

Additional observations from a re-analysis of the deposited data

How the results depend on the processing

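The number of members called, 5, was 9 with DESeq2 (which also called *Angpt2*, *Cdh5*, *Robo4* and *Egfl7*), 3 with total count scaling, 3 with each limma fit on TPM, 4 with a length offset, 4 with a log2 fold change of at least 1, and between 3 and 5 with 1 library left out; with other count filters or DESeq2's size factors it was 5. The further lists' 15 calls became 28 with DESeq2, 9 and 9 with limma at pseudocounts of 1 and 0.1, 4 without a filter, and 4 to 14 with 1 library left out. Over all tested genes the 840 calls became 1802 with DESeq2, 807 with total count scaling and 764 with a length offset. They became 626, 635 and 359 in these limma fits, 370 with the replicate number as a block, and 311 to 922 with 1 library left out. The replicate numbers did not pair the mice (correlations of 0.066, 0.028 and -0.20, and no library matched its own number best). With the replicate number as a block, 3 members and 7 further genes were called, *Lyve1* turned to -0.23 and *Sema3c* to 0.12. Signs turned for genes near 0. With limma on log2(TPM + 1), with or without the filter, and on log2(TPM + 0.1), *Tek* was at 0.018 and 0.022, *Plvap* at 0.025 and 0.024, *Lyve1* at -0.044 and -0.049, *Plxnd1* at 0.11 and 0.11, and *Sema3c* at 0.21 and 0.22. *Plvap* was at 0.036 with total count scaling, and *Plxnd1* at 0.058 with a length offset. With 1 library left out, values ran from -0.27 to 0.24 for *Tek*, -0.22 to 0.082 for *Plvap*, -0.24 to 0.48 for *Mmrn1*, -0.11 to 0.32 for *Reln*, -0.99 to 0.50 for *Lyve1*, -0.31 to 0.59 for *Sema3c*, -0.056 to 0.23 for *Rbpj*, -0.048 to 0.29 for *Notch2*, -0.17 to 0.59 for *Fbln5*, -0.13 to 0.33 for *Maf* and -0.32 to 0.028 for *Angptl4*. The share differences ran from -0.257 to 0.789 points for Vegfa-201, -8.35 to 0.735 for Flt1-202 and -1.50 to 3.56 for Flt1-203. The cause of these changes was not tested. The members apart between genotypes, 15 in CPM and all lower, were 8 in TPM, again all lower. Of all tested genes, 13.2% were lower without overlap in CPM and 8.72% in TPM. Relative to the core sum 4 members were lower and 4 higher, beside 3.47% and 48.7% of all tested genes. The comparisons in TPM and relative to the core sum were chosen after seeing the data. With 3 mice a genotype, *Mmrn1*, *Prox1* and *Sox18* had the largest standard errors, 0.44, 0.35 and 0.33 on the log2 scale.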
